A study of Mus musculus with 25 samples.

Results

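Messenger RNA of untreated mouse embryonic stem cells (mESCs) was compared with that of 8-cell mouse embryos that had received only the solvent DMSO, the 2 reference states of a study of DOT1L, which places methyl groups on lysine 79 of histone H3 (H3K79). The comparison used 5 of the 25 libraries of the series, chosen by their labels: 3 wild-type (WT) mESC libraries and 2 DMSO embryo libraries. The mESCs were of the v6.5 line, had a wild-type genotype and received no treatment. The embryos were wild type, came from B6D2F1 and Cast/EiJ parents, were treated with DMSO, and were collected 56 h after fertilization in pools of 30 to 35 embryos, so that 1 library is 1 pool. The labels do not say whether mESC libraries came from separate cultures, nor whether the cells grew with feeder cells. The other RNA libraries of the same 2 experiments, 2 of Dot1L KO mESCs and 2 of embryos treated with the DOT1L inhibitor SGC0946, were used as a second look. Peak lists of H3K79 methylation in WT mESCs were used as a further readout, from other libraries.

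The 8-cell embryo is a transient stage. Its genome has been switched on after fertilization, RNA loaded into the egg is still being cleared, and its cells compact and take on an inside or outside position that later separates trophectoderm from the inner cell mass. Embryonic stem cells are derived from the later blastocyst, from cells of the epiblast, and divide without limit in culture with the cytokine LIF. Both states carry the transcription factor OCT4, encoded by Pou5f1, but mESCs are further along the route to the epiblast and have adapted to culture medium. Cleavage embryos take up pyruvate and lactate rather than glucose as their main fuel.

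System, strain, sex mixture, library kit and counting tool all differ between the 2 groups and cannot be told apart. The mESC libraries were made with a kit that removes ribosomal RNA before conversion, and the embryo libraries with a kit for very small inputs. Reads of mESCs were given as estimated counts, in which a read that matches several genes is shared among them, and reads of embryos as whole counts. For this reason only large differences were called, without a test. Levels are CPM, counts scaled to the same library total, over the 19419 genes whose symbol occurred once in both tables, without the ribosomal RNA gene Rn45s. A gene was taken as much higher in a group where its mean was at least 8 times that of the other group and at least 10 CPM, and where every library of one group lay above every library of the other. A gene under 10 CPM in both groups could not be called. List counts over all members are therefore not the same measure as shares of genes with at least 10 CPM. Group means were taken as no lower than 3 counts per library, which is 0.11 CPM in mESCs and 0.131 CPM in embryos. Ratios are log2 of embryos over WT mESCs, and the value after ± is the SD over the 6 pairs of libraries.

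The joined genes held 25392772, 30124059 and 26393996 counts in the WT mESC libraries and 23200744 and 22690614 in the embryo pools. At least 1 count was found for 17417 to 17506 genes per mESC library and for 13371 to 13767 genes per pool. WT mESC libraries ranked the joined genes almost alike, with a Spearman correlation of 0.997 for each pair of libraries across genes. The 2 pools had 0.958, and pairs of an mESC library with a pool had 0.798 to 0.800. Genes are not independent replicates, and these values only describe the libraries. The chi-square for each degree of freedom was 2.12 to 2.40 among mESC libraries and 26.7 between the pools. The pools, with whole counts, thus differed by more than sampling noise. Estimated counts need not follow sampling noise, so the mESC values do not settle whether those libraries were separate.

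Of the joined genes, 447 were much higher in embryos, which is 2.3% of all joined genes and 4.5% of the 9939 with at least 10 CPM in a group. A larger number, 1646 genes, was much higher in WT mESCs, which is 8.48% of all joined genes and 16.6% of those with at least 10 CPM. Among the 9939 genes, 38.3% lay within 2-fold between the systems. The libraries of the groups did not overlap for 92.7% of them, so non-overlap by itself sets few genes apart. The median ratio of these genes was -0.59. With TMM scaling, which moves that median up by 0.39, 604 genes were much higher in embryos and 1320 in mESCs, and the embryo share of all calls went from 21.4% to 31.4%. Upper-quartile scaling gave a share of 33.4%. When only the ranks of genes within a library were kept, by quantile scaling, the counts were 730 and 824 and the share was 47.0%. The excess of genes on the mESC side therefore depends on the scaling, whereas 443 of the 447 embryo genes and 822 of the 1646 mESC genes were called again from ranks.

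**Figure D1:**
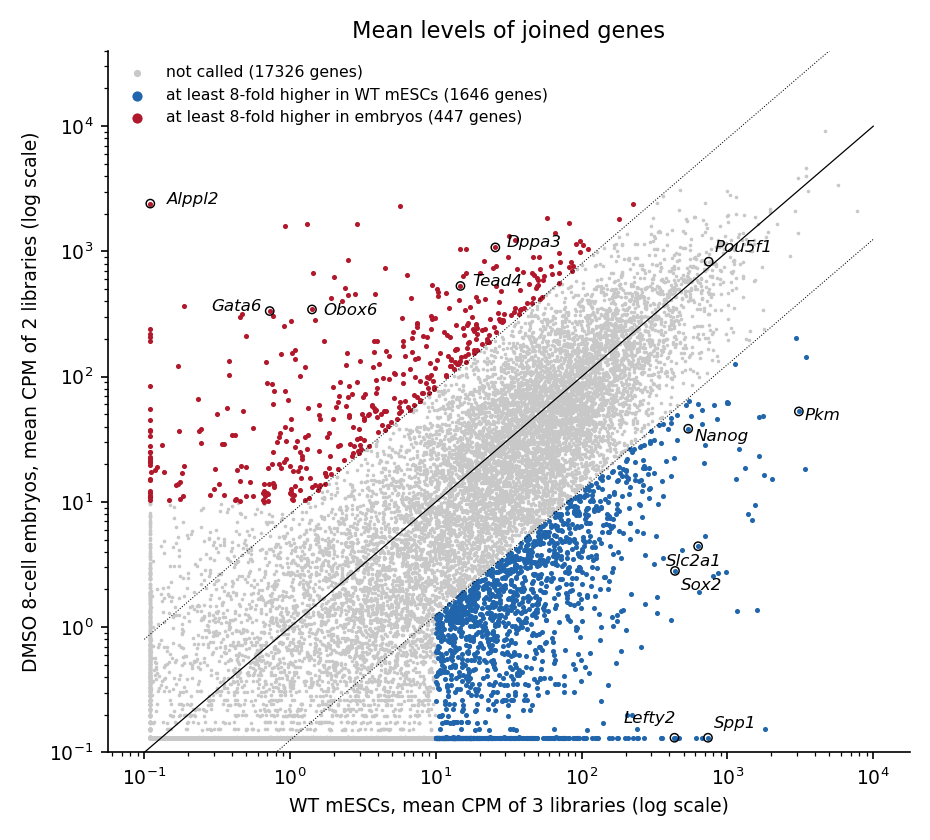
Mean CPM of each joined gene in 3 WT mESC libraries (x axis, log scale) and 2 DMSO embryo pools (y axis, log scale), with the means no lower than 3 counts per library. Red points are the 447 genes much higher in embryos, blue points the 1646 genes much higher in WT mESCs, the solid line marks equal levels and the dotted lines 8-fold differences. Pou5f1 lies near the line of equal levels, Alppl2 and Gata6 far above it and Spp1, Lefty2 and Sox2 far below it.

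Both sets held genes whose mESC reads may have been shared with other genes. Counts of WT mESCs were whole numbers, within 1e-06, in all 3 libraries for 32.5% of genes with at least 10 CPM, for 49.9% of the embryo genes and for 28.3% of the mESC genes. An estimated count that is not whole can hold reads that were shared among genes, but does not show it. Some departures were small, as for Cox5a, with 2913, 3724.99 and 3084.99 counts in the WT mESC libraries. The mESC set held 125 olfactory and vomeronasal receptor genes (symbols Olfr and Vmn), which serve smell, and the embryo set held 0. None of these 125 genes had whole counts, and none carried H3K79me2 in WT mESCs. Genes that every cell uses were also near 0 in both pools. The glycolytic enzyme gene Eno1 had 1845, 1750.1 and 1790.0 CPM in the WT mESC libraries and 0 and 0.308 CPM in the embryo pools, and the ribosomal protein gene Rpl26 had 585, 627 and 614 CPM in the WT mESC libraries and 0 and 0.0441 CPM in the embryo pools. Such genes are reported as uncertain. A set of 2790 genes with at least 10 CPM was therefore examined separately, chosen after the data were seen: whole counts in all WT mESC libraries, no RefSeq pseudogene named after the gene, and no overlapping protein-coding gene. Of these separable genes, 196 (7.03%) were much higher in embryos and 421 (15.1%) in mESCs. A count of 0 is whole, so genes with few mESC reads, which the embryo set favours, pass the whole-count condition more easily. The share of embryo genes with whole counts or separable reads is thus partly built in. Embryo counts were whole for every gene, so this condition says nothing of how embryo reads were placed.

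The 12 named genes with the largest ratios on the embryo side were Alppl2, Slc34a2, Khdc1c, Khdc1a, Vnn1, Trim43a, Timd2, Bex6, Pramel5, Sp110, Tdpoz4 and Gata6, with ratios from 14.41 down to 8.85. Alppl2, an alkaline phosphatase gene, had 57913 and 52640 counts in the pools and 2, 3 and 3 counts in the mESC libraries. Its level was 2496 and 2319.9 CPM in embryos, and its ratio over the pooled counts, without the floor of 3 counts, was 24666-fold (95% counting interval 12518 to 57134). Both pools thus lay more than 3 orders of magnitude above every mESC library. Slc34a2, which encodes a sodium and phosphate cotransporter, had 0, 0 and 0.0379 CPM in the WT mESC libraries and 246 and 236 CPM in the embryo pools. With the floor of 3 counts per library its ratio was 11.09. Its mESC reads came to 1 count in all, so the ratio over pooled counts without the floor, 19766-fold (95% counting interval 3547 to 780778), is known only within its wide interval. Khdc1c and Khdc1a, neighbouring genes on chromosome 1 of a family known from oocytes and early embryos, had 215 and 222 CPM and 204 and 208 CPM in the pools and 1 count each over the 3 mESC libraries. Vnn1, a pantetheinase gene, had 0.0394, 0.199 and 0.0379 CPM in the WT mESC libraries and 182 and 204 CPM in the embryo pools. Timd2, which encodes a receptor for ferritin, had 1.46, 1.16 and 1.33 CPM in the WT mESC libraries and 1645 and 1663 CPM in the embryo pools, a ratio of 10.30 ± 0.15. These 6 genes were all within the separable set.

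Others of the 12 belong to repeated families. Trim43a, of the TRIM family, had 1.14, 0.743 and 0.874 CPM in the WT mESC libraries and 1742 and 1436 CPM in the embryo pools. Pramel5, of the PRAME family, had 0.715, 0.248 and 0.442 CPM in the WT mESC libraries and 333 and 296 CPM in the embryo pools. Sp110, which encodes a nuclear body protein, had 3.28, 2.28 and 3.04 CPM in the WT mESC libraries and 1714 and 1619 CPM in the embryo pools, and Tdpoz4, of a BTB domain family known from the early embryo, had 0.0496, 0.037 and 0.0411 CPM in the WT mESC libraries and 45.5 and 64.0 CPM in the embryo pools. Their mESC counts were not whole and Sp110 overlaps Sp140, so their levels in mESCs may carry reads that belong to relatives.

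The promoters of these genes were read from RefSeq, in windows of 300 bases on GRCm38.p6 that run from 250 bases before the annotated start to 50 bases after it. The letters GGATTA, the core bound by OBOX and other homeodomain proteins with a lysine at the key position, were searched on both strands (as GGATTA or TAATCC). Of the 12 embryo genes 8 had a window, and 4 of them held the letters: Alppl2, Pramel5, Sp110 and Trim43a. Their windows are shown because these genes head the embryo side, with the match in capitals.
Alppl2 (chr1:87089879-87090178, minus strand): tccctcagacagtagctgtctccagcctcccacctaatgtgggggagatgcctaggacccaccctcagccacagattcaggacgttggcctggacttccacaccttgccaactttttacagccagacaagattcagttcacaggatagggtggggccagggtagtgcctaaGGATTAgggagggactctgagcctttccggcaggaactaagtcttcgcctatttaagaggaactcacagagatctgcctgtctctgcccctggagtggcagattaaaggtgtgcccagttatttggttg
Pramel5 (chr4:144280417-144280716, minus strand): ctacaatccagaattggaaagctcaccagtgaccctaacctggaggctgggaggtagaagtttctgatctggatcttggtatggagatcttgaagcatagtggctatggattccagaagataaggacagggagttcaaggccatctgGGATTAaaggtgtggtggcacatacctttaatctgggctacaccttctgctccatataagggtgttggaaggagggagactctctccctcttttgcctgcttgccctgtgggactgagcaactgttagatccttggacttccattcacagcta
Sp110 (chr1:85603842-85604141, minus strand): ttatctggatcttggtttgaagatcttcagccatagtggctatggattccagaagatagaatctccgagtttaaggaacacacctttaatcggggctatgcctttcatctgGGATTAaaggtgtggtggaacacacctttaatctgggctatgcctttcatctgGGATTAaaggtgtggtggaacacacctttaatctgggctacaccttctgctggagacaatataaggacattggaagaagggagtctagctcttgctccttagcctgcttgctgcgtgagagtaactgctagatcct
Trim43a (chr9:88580641-88580940, plus strand): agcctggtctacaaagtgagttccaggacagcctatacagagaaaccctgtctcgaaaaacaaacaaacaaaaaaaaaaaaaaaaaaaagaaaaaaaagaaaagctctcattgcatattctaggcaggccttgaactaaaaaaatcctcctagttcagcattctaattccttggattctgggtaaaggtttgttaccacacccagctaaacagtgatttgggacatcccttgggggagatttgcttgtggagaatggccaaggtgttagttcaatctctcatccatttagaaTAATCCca
The Pramel5 and Sp110 windows share the longer run GGATTAAAG, which occurs 2 times in the Sp110 window. GGATTA or TAATCC was found in 9.13% of the 427 windows of embryo genes, in 5.42% of windows of mESC genes, in 5.43% of windows of genes with at least 10 CPM that were in neither set, and in 7.06% of all 32851 windows. The longer run was looked for after these sequences had been seen, on both strands. It was in 1.64% of embryo windows, 0.177% of mESC windows, 0.256% of windows of genes in neither set and 0.475% of all windows. It is part of the common B1 repeat of the mouse genome. A match is a description of the letters and not a binding site.

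Other promoter features differed between the sets as well. The medians of observed over expected CpG were 0.571 for embryo windows, 0.602 for mESC windows, 0.798 for genes in neither set and 0.384 for all windows. Windows of both sets thus held fewer CpG dinucleotides than windows of expressed genes in neither set. The letters GGGCGG, bound by SP and KLF proteins, were in 48.9% of embryo windows, 54.8% of mESC windows and 66.4% of windows of genes in neither set. TATAAA was in 6.79%, 10.9% and 6.19%, and CCAAT, bound by NF-Y, in 37.0%, 37.1% and 38.4%. The octamer ATTTGCAT, bound by OCT4 and its relatives, was in 1.64%, 2.30% and 1.00% of these windows and in 1.74% of all windows. All were searched on both strands.

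The 12 named genes with the largest ratios on the mESC side included Eno1, Spp1, Vmn2r97, Rpl26, Olfr1388, Hmga1, Lefty2, Slc7a3, Ass1, Olfr1459 and Snrpn, with ratios from -13.51 to -10.74. Spp1, the gene of the secreted protein osteopontin, was the only one of the 12 within the separable set. It had 729.9, 736 and 738 CPM in the mESC libraries, or 18535, 22176 and 19488 counts, and 0 counts in both pools, so that it was at least 5619.6-fold higher in mESCs. Its promoter window on GRCm38.p6 is shown because it heads the separable mESC genes and holds 1 octamer, in capitals.
Spp1 (chr5:104435942-104436241, plus strand): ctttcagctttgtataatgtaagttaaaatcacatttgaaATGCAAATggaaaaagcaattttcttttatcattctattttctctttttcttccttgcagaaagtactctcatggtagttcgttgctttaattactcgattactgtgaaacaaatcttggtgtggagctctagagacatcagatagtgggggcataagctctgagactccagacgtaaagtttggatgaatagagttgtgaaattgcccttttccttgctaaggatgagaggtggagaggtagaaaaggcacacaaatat
The octamer was also found in a window of Hmga1, and 9 of the 12 mESC genes had a window. Slc7a3, a transporter of cationic amino acids, had 359, 345 and 356 CPM in the WT mESC libraries and 0.0862 and 0 CPM in the embryo pools. Ass1, which encodes an enzyme of arginine synthesis, had 279, 268 and 261 CPM in the WT mESC libraries and 0 and 0 CPM in the embryo pools. Lefty2, which belongs to a group of signalling genes, was also near 0 in the pools. Vmn2r97, Olfr1388 and Olfr1459 belong to the receptor genes named above and had 0 counts in both pools.

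The core and naive pluripotency factors did not fall on one side. Of 16 genes 1 was much higher in embryos, 5 were much higher in mESCs and 10 were in neither set, and the median ratio was -0.11 (0.29 with TMM and -0.38 with quantile scaling), against -0.59 for all genes with at least 10 CPM. Among all those genes, 4.5% were much higher in embryos and 16.6% in mESCs. Pou5f1 had 753, 738 and 739 CPM in the WT mESC libraries and 819 and 838 CPM in the embryo pools, a ratio of 0.16 ± 0.02. Esrrb, a nuclear receptor of the naive state, had 455, 433 and 453 CPM in the WT mESC libraries and 369 and 338 CPM in the embryo pools. Tfcp2l1 and Klf4, which also sustain the naive state, had ratios of 0.12 ± 0.13 and 0.39 ± 0.21. The CPM of these 4 factors were thus within 2-fold between the 2 systems. This does not show equal levels, because kit and counting tool differ. Sox2, the partner of OCT4 on DNA, had 440.1, 440.3 and 429 CPM in the WT mESC libraries and 2.59 and 3.04 CPM in the embryo pools, a ratio of -7.28 ± 0.13. Nanog had 542, 535 and 536 CPM in the WT mESC libraries and 37.8 and 39.0 CPM in the embryo pools, a ratio of -3.81 ± 0.03. Mycn, a growth regulator, had 160.0, 149 and 151 CPM in the WT mESC libraries and 2.28 and 2.42 CPM in the embryo pools. Nr0b1, an X-linked gene whose protein binds OCT4, had 56.8, 54.7 and 57.2 CPM in mESCs and 0 counts in both pools, which is at least 430.1-fold higher in mESCs. Tcl1 was the fifth gene on the mESC side, with a ratio of -4.30 ± 0.28. In the other direction Nr5a2, an orphan nuclear receptor that acts in genome activation, had 89.6, 85.9 and 86.9 CPM in the WT mESC libraries and 817 and 723 CPM in the embryo pools, a ratio of 3.14 ± 0.10. Tbx3 and Klf5 were also higher in both pools than in every mESC library, with ratios of 1.65 and 1.23, short of 8-fold. Of the 9 separable genes of this list, 4 were much higher in mESCs and 0 in embryos.

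**Figure D2:**
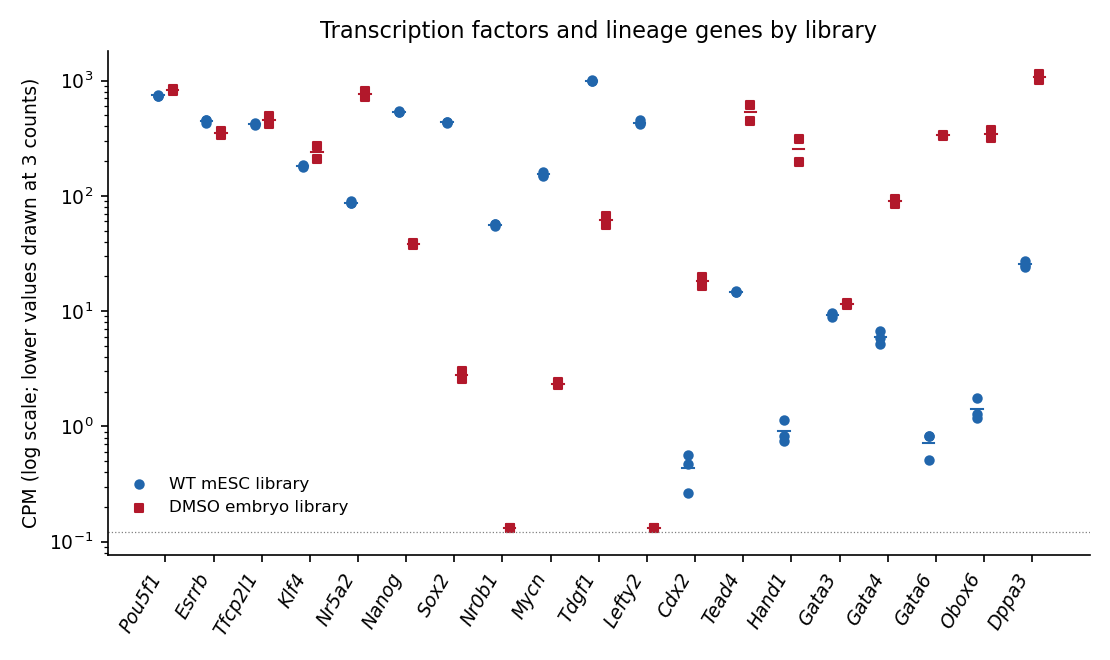
CPM (log scale, values under 3 counts drawn at that floor, shown as a dotted line) of 19 transcription factor and lineage genes in each WT mESC library (blue circles) and DMSO embryo pool (red squares), with a short line at each mean. Libraries of Pou5f1, Esrrb, Tfcp2l1 and Klf4 sit close together, Sox2 and Lefty2 are high only in the blue libraries, and Hand1, Gata6 and Obox6 only in the red ones; levels should be compared within a gene and not between genes, whose lengths differ.

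Among 21 other genes known for high levels in mESCs, 6 were much higher in mESCs and 0 in embryos, against 16.6% and 4.5% of all genes with at least 10 CPM, with a median of -1.65. Lefty2 and Lefty1, secreted inhibitors of NODAL, had 451, 425 and 422 CPM and 183, 175 and 172 CPM in mESCs against 0 and 0.0881 CPM and 0 and 0 CPM in the pools. Nodal itself had 56.3, 55.1 and 54.0 CPM in the WT mESC libraries and 1.34 and 1.63 CPM in the embryo pools. Tdgf1, the gene of the NODAL coreceptor CRIPTO, had 1009, 993 and 997 CPM in the WT mESC libraries and 67.6 and 55.4 CPM in the embryo pools. These 4 genes of NODAL signalling, grouped after their values were seen, were each more than 8-fold higher in mESCs. None of the 6 genes was within the separable set, which held 4 of the list. Lin28a and Dppa5a stayed short of 8-fold, with ratios of -1.65 and -1.65, while Dppa2 and Myc were higher in embryos, with ratios of 1.48 and 2.11.

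LIF acts through the receptor LIFR, its partner gp130 (encoded by Il6st) and STAT3. Of 10 genes of this route 2 were much higher in mESCs, the receptor genes Lifr and Il6st, a share near the 16.6% of all genes with at least 10 CPM. Lifr had 186, 181 and 187 CPM in the WT mESC libraries and 1.29 and 0 CPM in the embryo pools, and Il6st had 173, 171 and 175 CPM in the WT mESC libraries and 6.16 and 9.92 CPM in the embryo pools. Stat3 had a ratio of -1.53 ± 0.15 and Jak1 one of -0.67 ± 0.20. Socs3, a feedback inhibitor that STAT3 induces, pointed the other way, with 60.7, 55.8 and 55.8 CPM in the WT mESC libraries and 299 and 250.1 CPM in the embryo pools. In the SGC0946 pools against Dot1L KO mESCs the Socs3 ratio was -0.0011.

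For the FGF and ERK route, 16 genes gave 1 much higher in embryos and 3 much higher in mESCs, with a median of -1.44 (-0.54 with quantile scaling). The mESC share was near the 16.6% of all genes with at least 10 CPM. Among the receptor genes Fgfr4 had 2.40, 1.59 and 1.59 CPM in the WT mESC libraries and 27.2 and 9.78 CPM in the embryo pools, Fgfr2 had 23.5, 22.3 and 21.3 CPM in the WT mESC libraries and 129.5 and 151 CPM in the embryo pools and Fgfr3 had 4.49, 3.68 and 3.71 CPM in the WT mESC libraries and 26.1 and 20.8 CPM in the embryo pools, and only the first passed 8-fold. Fgfr1 was close between the systems, with a ratio of -0.79 ± 0.05. The ligand gene Fgf4 had 351, 352 and 358 CPM in the WT mESC libraries and 45.7 and 48.8 CPM in the embryo pools, just short of 8-fold. Of the genes that ERK activity induces, Egr1 had 64.0, 49.9 and 68.3 CPM in the WT mESC libraries and 0.345 and 0.441 CPM in the embryo pools, Etv4 had a ratio of -5.19 ± 0.53 and Etv5 one of -3.19 ± 0.06. Without the first pool Fgfr4 was under the minimum of 10 CPM, with a ratio of 2.39, and with TMM scaling Etv5 had a ratio of -2.80, short of 8-fold.

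Of 14 genes of the primed epiblast and early mesoderm, which follow implantation, 7 reached 10 CPM in a group, 5 were much higher in mESCs and 0 in embryos. The shares of all genes with at least 10 CPM were 16.6% and 4.5%. The median of the 14 was -3.09 (-1.53 with quantile scaling), and 3 lay above 0. Zic2 and Zic5, which encode zinc finger proteins, had ratios of -5.63 ± 0.87 and -6.55 ± 2.14. Otx2, a homeobox gene of the forming epiblast, had 58.0, 58.0 and 52.5 CPM in the WT mESC libraries and 5.34 and 5.20 CPM in the embryo pools, a ratio of -3.41 ± 0.08, which was -2.35 with quantile scaling. Fgf5 and T, the usual markers of later stages, were low in mESCs, with 2.74, 3.12 and 3.68 CPM and 2.56, 2.32 and 1.89 CPM.

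Some regulators of the trophectoderm, the outer layer that will form placenta, were far higher in embryos. Of 18 genes 10 had at least 10 CPM in a group. Of these 3 were much higher in embryos, all within the separable set, and 0 in mESCs. Among all genes with at least 10 CPM, 4.5% were much higher in embryos and 16.6% in mESCs. Hand1 had 0.748, 0.83 and 1.14 CPM in the WT mESC libraries and 309 and 197 CPM in the embryo pools, a ratio of 8.13 ± 0.45. Cdx2 had 0.473, 0.266 and 0.568 CPM in the WT mESC libraries and 19.7 and 16.5 CPM in the embryo pools, a ratio of 5.38 ± 0.53. Tead4, whose protein acts with YAP upstream of Cdx2, had 14.8, 14.6 and 14.8 CPM in the WT mESC libraries and 611 and 449 CPM in the embryo pools, a ratio of 5.17 ± 0.24. Each of these 3 genes was higher in both pools than in any mESC library by more than 8-fold. Gata3 did not share this, with 9.46, 8.88 and 9.57 CPM in the WT mESC libraries and 11.2 and 11.7 CPM in the embryo pools. Tfap2c had a ratio of 1.54 ± 0.05. Keratin genes of the mature layer were in neither set, with ratios from -4.77 for Krt19 to 1.48 for Krt8. The Krt19 ratio is past 8-fold toward mESCs, but the gene did not meet the other conditions of the call. The median of the list was -0.15, and 0.25 with TMM scaling, so the list as a whole did not lie on one side.

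Of 24 genes for polarity, junctions and fluid transport, the machinery of compaction and of the later cavity, 2 were much higher in embryos and 1 in mESCs. The shares of all genes with at least 10 CPM were 4.5% and 16.6%. Aqp9, a water and glycerol channel, had 4.18, 5.12 and 4.96 CPM in the WT mESC libraries and 137 and 155 CPM in the embryo pools. Amot, a Hippo pathway scaffold on the X chromosome, had 18.1, 18.8 and 18.0 CPM in the WT mESC libraries and 150.4 and 174 CPM in the embryo pools. Ezr, which links the membrane to actin, had 292, 284 and 293 CPM in the WT mESC libraries and 9.91 and 11.6 CPM in the embryo pools. The adhesion gene Cdh1 was within 2-fold, with a ratio of -0.51 ± 0.09, and so was Yap1, with 0.58 ± 0.09. The tight junction genes Cldn4 and Cldn7 had ratios of 2.71 and 2.20.

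Of 14 primitive endoderm genes 9 had at least 10 CPM in a group. Of these 4 were much higher in embryos and 2 in mESCs. The median of the 14 was -0.55. The shares of all genes with at least 10 CPM were 4.5% and 16.6%, and the mESC side of the list, 2 of 9, was not far above the latter. The 2 GATA factors that set up this lineage were on the embryo side. Gata6 had 0.512, 0.83 and 0.834 CPM in the WT mESC libraries and 329 and 339 CPM in the embryo pools, a ratio of 8.85 ± 0.36, and Gata4 had 5.91, 5.18 and 6.73 CPM in the WT mESC libraries and 84.9 and 94.3 CPM in the embryo pools. Cubn and Dab2, which serve endocytosis of proteins, had ratios of 3.18 and 3.13. Without the second pool Cubn had a ratio of 2.82, short of 8-fold, and between SGC0946 embryos and Dot1L KO mESCs it had a ratio of 0.03. Sox17 and Foxa2, later factors of endoderm, were near 0 in all 5 libraries. Sparc and Lama1, of the basement membrane, were much higher in mESCs, with 201, 194 and 185 CPM and 61.2, 60.8 and 63.5 CPM against 0.603 and 2.12 CPM and 3.15 and 6.74 CPM.

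Oocyte and maternal-effect genes were far higher in embryos. Among all genes with at least 10 CPM, 4.5% were much higher in embryos and 16.6% in mESCs. Of 28 joined genes of this list 18 had at least 10 CPM in a group. Of these 13 were much higher in embryos and 1 in mESCs, and 6 of the 13 were within the separable set. The median of the 28 genes was 3.74. Their summed level was 201 to 203 CPM in mESC libraries and 1571 to 1798 CPM in the pools, of which the larger part was Dppa3. Dppa3 (Stella), which protects the methylated maternal genome, had 24.3, 27.1 and 25.3 CPM in the WT mESC libraries and 1148 and 1005 CPM in the embryo pools, a ratio of 5.40 ± 0.13. Padi6, of the cytoplasmic lattices of the egg, had 0.473, 0.498 and 0.455 CPM in the WT mESC libraries and 55.6 and 51.4 CPM in the embryo pools. Zp2, a coat protein of the egg, had 0.276, 0.133 and 0.152 CPM in the WT mESC libraries and 22.1 and 16.7 CPM in the embryo pools. The oocyte growth factors Bmp15 and Gdf9 had 13.4 and 14.3 CPM and 33.3 and 27.4 CPM in the pools and under 1 CPM in every mESC library. Khdc3 and Nlrp5, of the subcortical maternal complex, had ratios of 3.77 ± 0.19 and 3.68 ± 0.11. Ooep, of the same complex, went the other way, with 91.5, 91.6 and 92.1 CPM in the WT mESC libraries and 4.66 and 0.308 CPM in the embryo pools, and its counts were not whole. The 2 pools differed in Ooep by more than 10-fold.

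Of 5 OBOX homeobox genes that joined, Obox6 was much higher in embryos. It had 1.77, 1.29 and 1.17 CPM in the WT mESC libraries and 369.6 and 319 CPM in the embryo pools, a ratio of 7.93 ± 0.30. Obox1, Obox2 and Obox5 had at most 1 count over the mESC libraries and at most 2.47 CPM in a pool, under the minimum of 10 CPM. Genes of the earlier 2-cell stage were divided. Among all genes with at least 10 CPM, 4.5% were much higher in embryos and 16.6% in mESCs. Of 17 genes of that stage only 4 had at least 10 CPM in a group and could be called. Of these 4, 2 were much higher in embryos, Sp110 and Tdpoz4, and 1 in mESCs. The latter was Zscan4f, of a family that a few mESCs express in bursts, with 13.4, 13.5 and 13.9 CPM in the WT mESC libraries and 0 and 0.353 CPM in the embryo pools. The 5 other Zscan4 genes had means of 3.57 to 9.54 CPM in mESCs and at most 1.15 CPM in a pool. Reads of this family cannot be separated among its members.

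Of 11 DNA methylation genes 3 were much higher in mESCs and 0 in embryos, with a median of -2.38. The shares of all genes with at least 10 CPM were 16.6% and 4.5%. Tet2, which oxidizes methylcytosine, had 660.2, 661 and 689 CPM in the WT mESC libraries and 57.6 and 50.3 CPM in the embryo pools. Uhrf1, the cofactor of maintenance methylation, had 419, 407 and 406 CPM in the WT mESC libraries and 48.8 and 43.9 CPM in the embryo pools, which was short of 8-fold with TMM scaling, at a ratio of -2.75. Tdg, a DNA glycosylase gene, had 0 counts in both pools against 125, 126 and 130.0 CPM, but 2 pseudogenes carry its name and its counts may have been shared. Tet3, the enzyme of the egg, had the opposite direction, with 48.8, 45.4 and 45.9 CPM in the WT mESC libraries and 118 and 95.9 CPM in the embryo pools. Dnmt1 was within 2-fold, with a ratio of -0.93 ± 0.09. None of the 8 genes of the DOT1L complex was in either set. Dot1l had 113, 105 and 108 CPM in the WT mESC libraries and 325 and 299 CPM in the embryo pools, a ratio of 1.52 ± 0.08. Aff1, of the elongation complex around DOT1L, had 91.3, 89.8 and 91.1 CPM in the WT mESC libraries and 526 and 646 CPM in the embryo pools, and Aff4 743, 748 and 745 CPM in the WT mESC libraries and 198 and 184 CPM in the embryo pools. Of 19 Polycomb genes 3 were much higher in mESCs, Pcgf2, Cbx7 and Phf19, and 0 in embryos, a share near the 16.6% of all genes with at least 10 CPM. With TMM scaling Cbx7 and Phf19 were short of 8-fold, with ratios of -2.85 and -2.80. The catalytic gene Ezh2 was within 2-fold, with 213, 217 and 214 CPM in the WT mESC libraries and 295 and 296 CPM in the embryo pools.

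Genes of glycolysis and lactate transport were far lower in embryos. Of 20 genes 14 were much higher in mESCs and 0 in embryos, against 16.6% of all genes with at least 10 CPM, and the median was -4.57. Their summed level was 17754 to 18388 CPM in mESC libraries and 736 to 809.9 CPM in the pools. Both the 14 genes and the sum include Eno1, which is reported above as uncertain. Slc2a1, the glucose transporter GLUT1, had 654, 614 and 618 CPM in the WT mESC libraries and 3.97 and 4.89 CPM in the embryo pools, a ratio of -7.15 ± 0.17. Pfkp, an isoform of the committed enzyme, had 716, 685 and 692 CPM in the WT mESC libraries and 4.91 and 5.82 CPM in the embryo pools. Pkm, the last enzyme of the pathway, had 3122, 3079 and 3060.2 CPM in the WT mESC libraries and 51.0 and 54.5 CPM in the embryo pools, and Ldha, which makes lactate, had 1674, 1642 and 1618 CPM in the WT mESC libraries and 22.0 and 24.9 CPM in the embryo pools. Slc2a3, the glucose transporter GLUT3, had 1691, 1638 and 1642 CPM in the WT mESC libraries and 63.9 and 31.6 CPM in the embryo pools. The hexokinases differed: Hk2 had a ratio of -2.25 ± 0.12, whereas Hk1 was higher in both pools, with 57.9, 61.0 and 55.9 CPM in the WT mESC libraries and 279.8 and 255 CPM in the embryo pools. Counts of most of these genes were not whole, and 3 of the 20 were separable. Of these 3, Slc2a1 was much higher in mESCs, Slc16a1 had a ratio of -2.58 ± 0.02 and Hk1 one of 2.20 ± 0.09. Of 76 cytosolic ribosomal protein genes 4 were much higher in mESCs, the median was 0.12 (-0.10 with quantile scaling), and they summed to 48455 to 49615 CPM in mESC libraries and 51740.2 to 54573 CPM in the pools.

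Of 26 cyclin and division kinase genes 3 were much higher in mESCs and 0 in embryos, which is no more than the 16.6% of all genes with at least 10 CPM, and the median was -0.08. Ccnd2, a D-type cyclin, had 54.8, 53.5 and 46.9 CPM in the WT mESC libraries and 2.72 and 1.28 CPM in the embryo pools, and Cdk6, its kinase, 42.3, 40.0 and 42.2 CPM in the WT mESC libraries and 4.87 and 3.44 CPM in the embryo pools. Cdkn1b, an inhibitor of these kinases, had 34.7, 35.6 and 33.7 CPM in the WT mESC libraries and 4.66 and 1.23 CPM in the embryo pools. Both Cdkn1b without the second pool and Cdk6 with TMM scaling were short of 8-fold, with ratios of -2.90 and -2.93. Ccnd1 was just short of 8-fold, with 184, 179 and 167 CPM in the WT mESC libraries and 35.0 and 10.4 CPM in the embryo pools, and passed it without the first pool, with a ratio of -4.08. Ccne1 and Ccna2, cyclins of the start and course of S phase, had ratios of 1.46 and 0.97. The mitotic genes Cdk1, Ccnb1 and Plk1 were within 2-fold, with ratios of 0.15, 0.52 and 0.29.

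**Figure D3:**
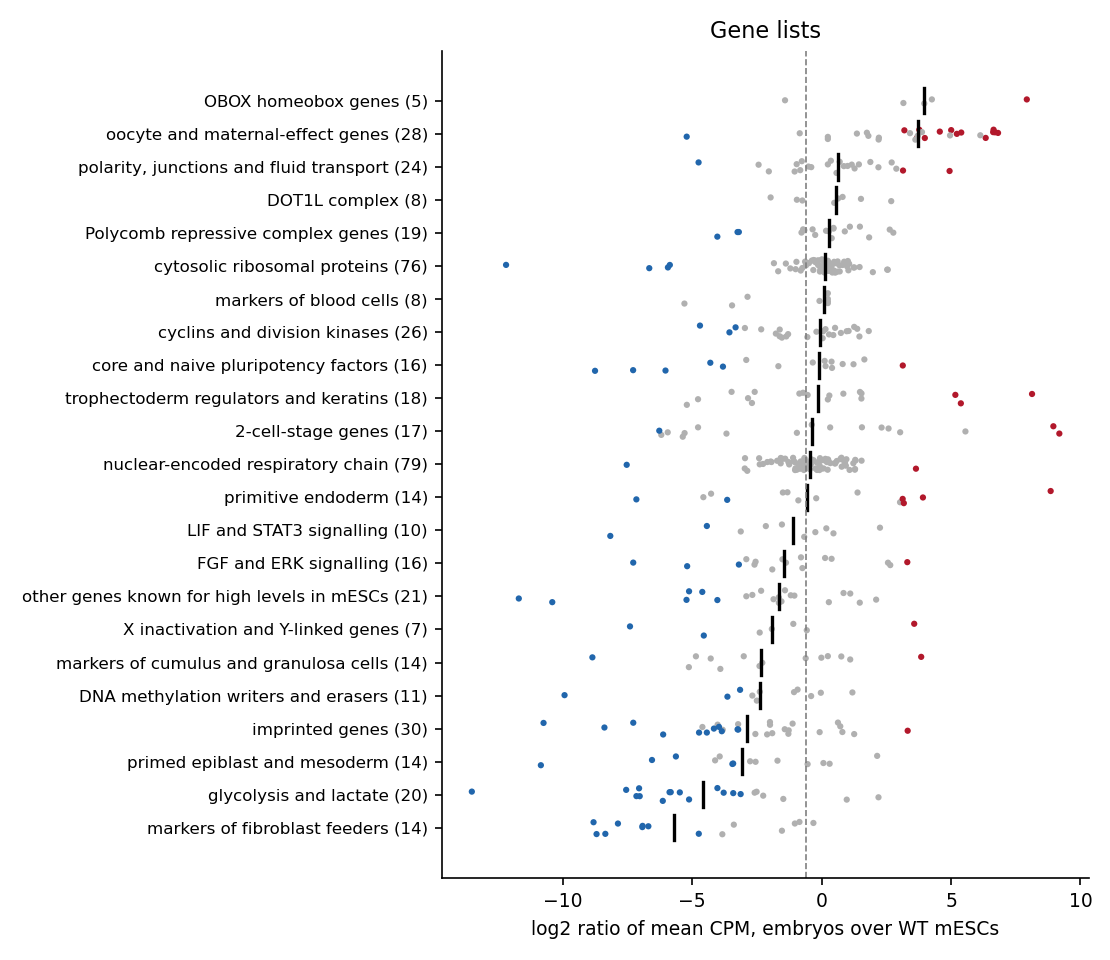
Log2 ratio of mean CPM, embryos over WT mESCs, of each member of the gene lists (number of joined members in brackets), with a black bar at each median and a dashed line at the median of all genes with at least 10 CPM, -0.59. Red points are much higher in embryos and blue points much higher in WT mESCs; oocyte genes lie to the right with a median of 3.74, and glycolysis genes and fibroblast markers to the left with medians of -4.57 and -5.71.

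Imprinted genes are those of which one parental copy is silent. Of 30 joined genes 24 had at least 10 CPM in a group. Of these 11 were much higher in mESCs and 1 in embryos. The median of the 30 was -2.89, and 5 lay above 0. The shares of all genes with at least 10 CPM were 16.6% and 4.5%. Peg10, a gene derived from a retrotransposon, had 627, 649.6 and 630.2 CPM in the WT mESC libraries and 3.41 and 0.397 CPM in the embryo pools. Peg3 had 439.6, 461 and 452 CPM in the WT mESC libraries and 41.2 and 21.2 CPM in the embryo pools, and Slc38a4, an amino acid transporter, had 229.8, 233 and 232 CPM in the WT mESC libraries and 11.8 and 17.9 CPM in the embryo pools. Mest and Plagl1 had ratios of -6.12 ± 0.48 and -4.43 ± 0.63. Those 5 genes are known to be expressed from the paternal copy, but Ube3a and Zim1, which are not, were also lower in the pools, with ratios of -3.24 and -4.60. Igf2r, expressed from the maternal copy in later tissues, was the 1 gene much higher in embryos, with 183, 177 and 182 CPM in the WT mESC libraries and 1876 and 1744 CPM in the embryo pools, a ratio of 3.33 ± 0.06. The long non-coding genes H19, Meg3 and Xist did not occur under 1 symbol in both tables and were not compared.

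Genes of the X chromosome were lower in embryos relative to mESCs than autosomal genes. Among genes with at least 10 CPM, the median ratio was -2.23 for 373 X-linked genes and -0.55 for 9559 autosomal genes, and 38.3% against 15.7% were much higher in mESCs. Among separable genes the medians were -2.45 and -0.29, and with TMM scaling -1.83 and -0.16. X-linked genes made up 5.57 to 5.62% of joined counts in WT mESCs and 2.85 to 3.01% in the DMSO pools. The share was 3.32 to 3.34% in Dot1L KO mESCs and 2.79 to 3.14% in SGC0946 pools. Between those 2 groups the medians were -1.29 for the X chromosome and -0.51 for autosomes. The X-linked share thus set the WT mESC libraries apart from the other 6 RNA libraries. The labels do not say whether the WT and KO lines carry the same number of X chromosomes, and the part of X copy number in these values was not tested. Y-linked genes were found in both systems, with 96.2, 97.2 and 97.2 CPM in the WT mESC libraries and 47.8 and 43.2 CPM in the embryo pools for Ddx3y. The Y-linked share of joined counts was 0.0347 to 0.0357% in WT mESCs and 0.0214 to 0.0218% in Dot1L KO mESCs. It was 0.0120 to 0.0139% in DMSO pools and 0.0113 to 0.0152% in SGC0946 pools, so this share too was highest in WT mESCs. A pool mixes male and female embryos, and the labels give no sex.

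**Figure D4:**
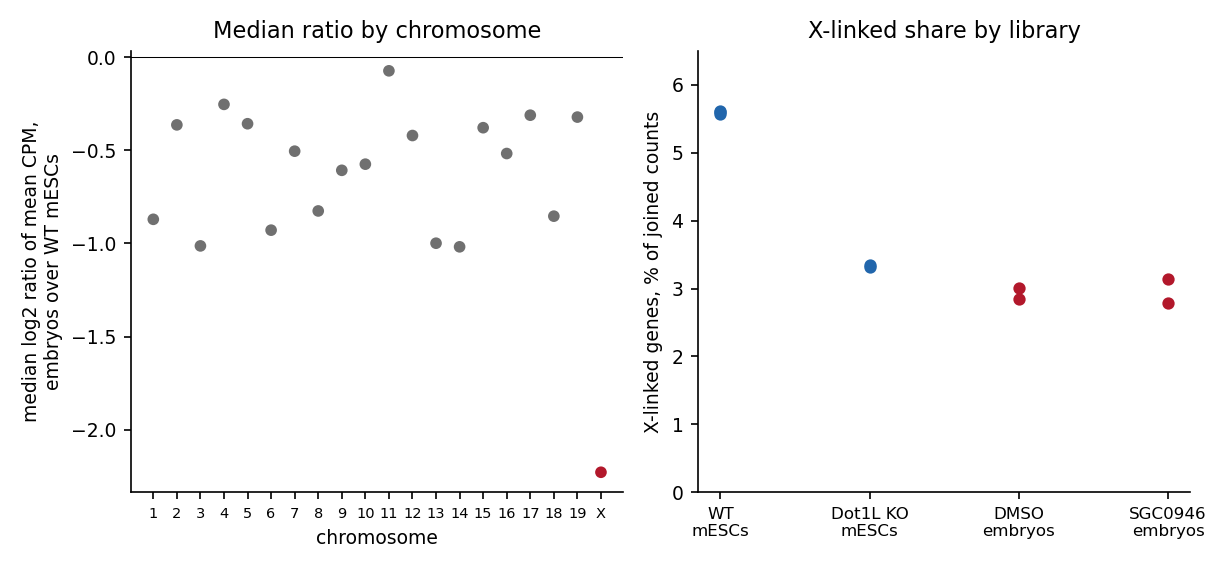
Left, median log2 ratio of mean CPM, embryos over WT mESCs, of genes with at least 10 CPM on each chromosome; right, X-linked genes as a percentage of joined counts in each RNA library of the 4 groups. The X chromosome lies at -2.23, under every autosome, and the WT mESC libraries lie at 5.57 to 5.62%, above the other 3 groups.

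Deposited peak lists of WT mESCs allowed the 2 gene sets to be set beside H3K79 methylation, the product of DOT1L, which marks transcribed genes. A gene was counted as marked where its body overlapped, by at least 1 bp, a region found in both WT lists. H3K79me2 marked 49.3% of the genes much higher in mESCs (811 of 1646, Wilson 95% interval 46.9 to 51.7%) and 25.7% of those much higher in embryos (115 of 447, interval 21.9 to 30.0%). These intervals treat genes as independent and hold no spread between ChIP replicates. Single WT lists gave 56.9% and 55.3% of mESC genes and 32.2% and 30.7% of embryo genes, outside the intervals. Genes with at least 10 CPM in neither set were marked in 77.5% of cases, and all joined genes in 37.7%. The embryo genes were chosen for low levels in mESCs relative to embryos and were not matched by level. Their share is therefore not independent of the call. For H3K79me3 the shares were 12.5% of mESC genes, 5.15% of embryo genes and 17.7% of genes in neither set. These shares depend on the list: with the first WT list alone they were 31.0%, 24.8% and 39.0%, and with the second 14.3%, 6.26% and 19.4%.

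The lower share of mESC genes was seen at each level of expression in WT mESCs, a view added after the data were seen. At 10 to 30 CPM, H3K79me2 marked 25.9% of 820 mESC genes and 53.9% of 2354 genes in neither set. At 30 to 100 CPM the shares were 65.6% and 87.8%, and at 100 CPM or more 86.5% and 98.7%. Among separable genes, 53.7% of mESC genes and 76.9% of genes in neither set were marked. The shares with H3K79me3 were close to each other, with 4.88% against 4.93%, 10.5% against 10.7%, and 39.6% against 43.9% at the 3 levels. With the first WT list alone they were 20.1% against 19.6%, 31.1% against 34.0%, and 63.7% against 70.3%. Of the embryo genes, 116 were under 1 CPM in WT mESCs, and 6 of these (5.17%, interval 2.39 to 10.8%) carried H3K79me2. The share was 0.722% of all 5267 joined genes under 1 CPM, which include these 116 and genes without mESC reads. Levels within that range were not matched, so these shares do not compare genes of like expression. Spp1, Slc2a1, Sox2 and Nanog were marked by H3K79me2 in WT mESCs among the mESC genes, and Tead4, Nr5a2 and Igf2r among the embryo genes, whereas Alppl2, Gata6, Obox6 and Dppa3 were not.

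**Figure D5:**
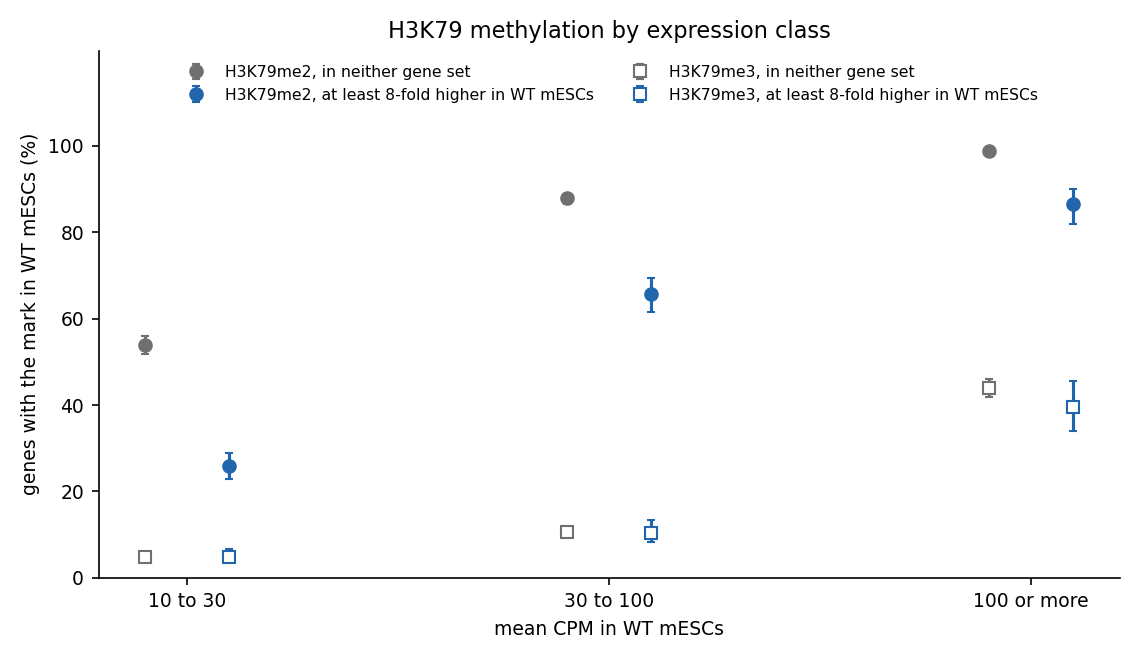
Percentage of genes with H3K79me2 (filled circles) or H3K79me3 (open squares) over the gene body in WT mESCs, by mean CPM in WT mESCs, for genes much higher in WT mESCs (blue) and genes in neither set (grey), with Wilson 95% intervals. The intervals treat genes as independent and hold no spread between ChIP replicates. H3K79me2 is lower on the blue genes at each level, 25.9% against 53.9% at 10 to 30 CPM, while the H3K79me3 shares lie closer together, 4.88% against 4.93% at that level.

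Markers of other cell types were examined because an mESC culture or an embryo pool can hold other cells. Fewer cells of a type and less RNA per cell cannot be told apart in these libraries. For each marker list below, the shares of all genes with at least 10 CPM were 16.6% much higher in mESCs and 4.5% in embryos. Of 14 fibroblast markers, as feeder cells would carry, 10 had at least 10 CPM in a group. Of these 8 were much higher in mESCs and 0 in embryos. The list summed to 311 to 381 CPM in mESC libraries and 19.3 to 27.3 CPM in the pools. Col1a1 had 64.4, 60.5 and 44.9 CPM in the WT mESC libraries and 1.94 and 2.29 CPM in the embryo pools and Col1a2 had 59.8, 57.0 and 45.2 CPM in the WT mESC libraries and 0 and 0.0441 CPM in the embryo pools. The markers Lum and Dcn were low in mESCs, with 0.202, 0.286 and 0.221 CPM and 1.35, 1.56 and 1.19 CPM. The part of such cells in the genes much higher in mESCs was not tested. Of 14 cumulus and granulosa cell markers 3 had at least 10 CPM in a group. Among these 1 was much higher in embryos, Amhr2, with 3.94, 3.59 and 2.80 CPM in the WT mESC libraries and 47.5 and 51.7 CPM in the embryo pools. The 1 much higher in mESCs was Inhba. The 14 markers summed to 98.8 to 113 CPM in mESC libraries and 55.0 to 59.5 CPM in the pools. Fshr was at 0 in all 5 libraries, and Has2, Ptx3 and Inha were under 0.5 CPM in both pools. Of 8 blood cell markers only 1 had at least 10 CPM in a group, and none was in either set. Hbb-bs and Hbb-bt were at 0 in all 5 libraries. The mESC markers Nanog, Sox2, Zfp42 and Tdgf1 were high in every WT mESC library, and the embryo markers Obox6, Tead4, Padi6 and Dppa3 in both pools. Not all markers of these cell types set the systems apart. Pou5f1, used for both, the mESC marker Esrrb and the embryo marker Gata3 had CPM within 2-fold between the systems. Zfp42, Dppa5a and Tfap2c were in neither gene set, whereas Cdx2 was much higher in embryos.

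The calls were repeated with the other 2 groups of the same experiments. Between SGC0946 embryos and Dot1L KO mESCs, 370 genes were much higher in embryos and 1638 in mESCs. Of the 447 embryo genes 319 (71.4%) were called again, and of the 1646 mESC genes 1271 (77.2%). These libraries share kit, strain and counting tool with those compared here, so a gene called again in them does not separate the system from these factors.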

How the data were processed

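The members compared, the call rule and the gene lists were chosen with earlier results of these data known. Groups followed genotype and treatment in the labels, and 0 table columns remained without a sample. The deposited mESC table holds estimated counts (expected counts) per gene and the deposited embryo table whole read counts. Per the submitters' processing notes, kallisto, STAR and HTSeq were used for mESC libraries (kallisto only for WT replicate 1), STAR and HTSeq for embryos, Bowtie2 and MACS2 for peaks, and mm10 as the build. Their settings, including strandedness, are not given in the sources used here, so overlapping and antisense genes are uncertain. In the deposited peak lists, the authors' scores, fold values, −log10 p and −log10 q were not used; only positions were.

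The tables shared 19434 symbols. Left out were 27 symbols repeated in the mESC table, 69 genes without a symbol, and Rn45s, which held 12.8 to 13.8% of counts in the DMSO pools and is only in the embryo table. Mitochondrial genes and replication histones had no symbol in common. Of 19419 joined genes 19415 matched RefSeq on GRCm38.p6. CPM used totals of joined genes. The reported calls used no test between the systems, and tests entered only as an added condition in the alternatives below. A p-value here would measure only the spread between libraries of each system. The rule was tested on simulated data. The simulation held no difference of kit, strain or counting tool, so it cannot speak to these factors. Alternatives were TMM, upper-quartile and quantile scaling, other totals, fold thresholds of 4 and 16, no minimum or 30 CPM, 1 CPM added, protein-coding genes, the addition of an adjusted p under 0.05 from edgeR 4.0.16 (quasi-likelihood test on rounded counts) or DESeq2 1.42.0 in R 4.3.3, the Dot1L KO and SGC0946 libraries, and leaving out each library. Separable genes, levels of expression behind the marks, the chromosome comparison and the motif GGATTAAAG were added after seeing the data.

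Named genes were the 12 protein-coding genes with the largest ratios in each set, without predicted genes, and up to 6 genes per list, called ones first; others are named after their values were seen. One gene that the rule names is not reported here. Intervals cover counting error only, because reads are not independent molecules. Calculations were made in Python 3.11.15 (scipy 1.17.1, pandas 2.3.3, numpy 2.4.6; figures in matplotlib 3.10.9).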

Additional observations from a re-analysis of the deposited data

How the results depend on the processing

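Of the genes much higher in embryos, reported as 447, there were 730 with quantile scaling, 910 at 4-fold, 251 at 16-fold, 706 with no minimum CPM and 196 among separable genes, the last chosen after seeing the data. Of the genes much higher in WT mESCs, reported as 1646, there were 824, 2649, 1117, 3728 and 421 under the same settings, and 826 with a minimum of 30 CPM. All other settings were within 1.5 times of the reported counts: TMM and upper-quartile scaling, other totals, 1 CPM added, protein-coding genes, the edgeR and DESeq2 conditions (447 and 447, 1637 and 1638), the Dot1L KO and SGC0946 libraries, and leaving out each library, with 439 to 452 and 1643 to 1709. The separable set was 28.07% of genes with at least 10 CPM, and it kept 43.85% of embryo genes and 25.58% of mESC genes. The fold and CPM thresholds change the counts by construction. The causes of the changes among separable genes and with quantile scaling were not tested. With either WT list alone, H3K79me2 marked 32.2% and 30.7% of embryo genes and 56.9% and 55.3% of mESC genes, and at 16-fold 15.1% and 44.3%. H3K79me3 marked 24.8% of embryo genes and 31.0% of mESC genes with the first list alone, and 14.3% of mESC genes with the second. Among medians of lists and ratios of named genes, 82 of 225 values for genes and 90 of 207 for lists moved by more than the spread between replicates. Among called list genes, Gpi1 also fell short without the second pool and with TMM scaling, and E330034G19Rik, Btg4 and Omt2a fell under 10 CPM without one of the pools. No paired analysis was possible because the groups come from separate experiments whose replicate numbers are unrelated, and the calls come from no test. Under 3 counts per library, a level cannot be told from 0 at this depth.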

Other observations

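Beyond the 12 largest ratios, the separable genes held several with known metabolic or secreted products, named here after their values were seen. On the embryo side Gulo, the enzyme that completes vitamin C synthesis, had 2.48, 2.26 and 2.39 CPM in the WT mESC libraries and 511 and 508 CPM in the embryo pools. Foxe1, a forkhead factor, had 0.197, 0.166 and 0.341 CPM in the WT mESC libraries and 56.9 and 75.6 CPM in the embryo pools, and Npy, the gene of neuropeptide Y, had 0.118, 0 and 0.0758 CPM in the WT mESC libraries and 36.7 and 38.4 CPM in the embryo pools. Exosc6, a subunit of the RNA exosome, had 0 counts in all 3 mESC libraries and 37.0 and 30.7 CPM in the pools, although the exosome is needed in every cell. Tat, an aminotransferase of tyrosine breakdown, had 2 counts over the mESC libraries and 25.0 and 25.4 CPM in the pools. Havcr1, a neighbour of Timd2 on chromosome 11 and of the same receptor family, had 0.0788, 0.0332 and 0.0758 CPM in the WT mESC libraries and 36.2 and 54.1 CPM in the embryo pools.

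On the mESC side Trh, the gene of thyrotropin-releasing hormone, had 203, 196 and 213 CPM in the WT mESC libraries and 0 and 0.397 CPM in the embryo pools. Ak1, an adenylate kinase gene, had 111, 111 and 103 CPM in the WT mESC libraries and 0.302 and 0 CPM in the embryo pools. Vcan and Tnc, of the extracellular matrix, had 94.2, 93.6 and 94.2 CPM in the WT mESC libraries and 0 and 0.22 CPM in the embryo pools and 86.5, 90.3 and 68.7 CPM in the WT mESC libraries and 0 and 0.176 CPM in the embryo pools, and Vim, of the mesenchymal cytoskeleton, had 168, 152 and 133 CPM in the WT mESC libraries and 0.69 and 0 CPM in the embryo pools. Ptgs2, which encodes cyclooxygenase 2, had 48.0, 49.9 and 41.3 CPM in mESCs and 0 counts in both pools. Fibroblasts also express Vcan, Tnc and Vim, and the summed fibroblast markers were higher in the same libraries; their part was not tested. Of 79 nuclear-encoded genes of the respiratory chain 1 was much higher in each system, with a median of -0.45 (0.09 with quantile scaling).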
